A study of Mus musculus with 3 samples.

Results

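Genes expressed by primary embryonic fibroblasts of mice without Rb and Atm were described from a single array, that of the cells given an empty vector. It is 1 of 3 arrays in the series, and the only one used here. Its sample was chosen by the transfection label, and its features were all spots that were neither controls nor outliers: 39416 probes, of which 26404 carried the symbol of 20013 genes. The cells had the genotype Rb-/-;ATM-/- on the C57BL/6J background and were made at embryonic day 10.0. They received the empty vector, were kept in puromycin at 4 ug/ml for 3 days and grew for 4 more days in MEM-alpha with 10% FBS before total RNA was taken, labelled with Cy3 and hybridised. The labels give all 3 samples the same cells, knockout alleles and selection, and no number of embryos or cultures. A single array has no biological replicate, so the values below carry no test and describe this RNA sample only.

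Fibroblasts are the matrix-producing cells of connective tissue. They secrete collagen, fibronectin and proteoglycans, and they pull on that matrix with bundles of actin and myosin. pRB, the protein made from Rb1, binds E2F transcription factors and holds back genes of DNA replication and mitosis, while the kinase ATM signals DNA breaks to p53 and other targets. DNMT1, the enzyme altered elsewhere in the series, copies DNA methylation to new strands, and promoters rich in CpG that carry methylation are as a rule not transcribed.

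On this array 21714 of 39416 probes (55.1%) gave a signal that the scanner software marked as well above background. A gene was called detected if at least 1 of its probes had that mark, and its level was the mean log2 processed signal of those probes. By that rule 12744 of 20013 genes (63.7%) were detected. Genes at or above the 90th percentile of all probes, by rank, were called high: at least 90% of probes had a lower signal. By interpolation this percentile lay at 15178.1 intensity units. High genes numbered 1876 (9.37%) and held 75.7% of the summed gene signal. The lowest high gene had a signal of 15190.4 and the highest gene below that rank 15186.7. A further 10868 genes (54.3%) were detected below that rank and are called moderate, and 7269 genes (36.3%) had no probe well above background. The detected genes ran from 38.2 to 458519.2 intensity units with a median of 1929.5, whereas the median of the undetected genes was 8.85. Counts for every list below are to be read beside the shares of all genes, 63.7% detected and 9.37% high.

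**Figure D1:**
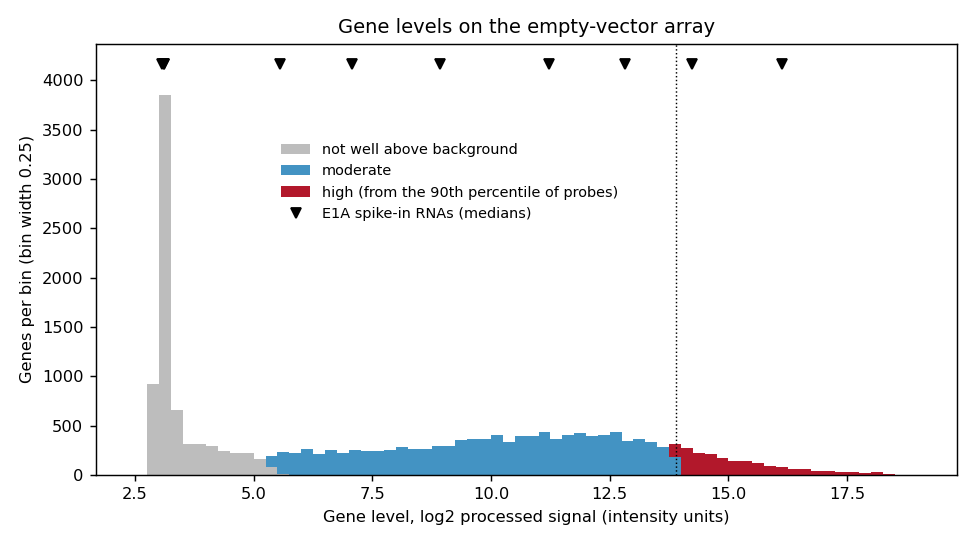
Number of genes (vertical axis) by gene level in log2 intensity units (horizontal axis) on the empty-vector array, stacked by class, with triangles at the median signals of the 10 E1A spike-in RNAs and a dotted line at the 90th percentile of probes. The 7269 genes without a probe well above background pile up near the level of the negative control spots (median 8.48 intensity units), and the 12744 detected genes form a broad hill without a gap.

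The spread within the array sets how finely levels can be read. Over 243 detected probes printed 6 or more times, the median SD between spots was 0.0454 on the log2 scale. Different probes of a gene agreed far less: in genes with several probes well above background their median range was 2.27 on the log2 scale, or 4.82-fold, and the pooled SD was 2.23. Probes differ in affinity and in the transcripts they meet, and signals were not divided by transcript length. Signals of different genes are therefore given to place them in a class, and the order of genes a few fold apart has no meaning here. Of the 10 spike-in RNAs, the lowest 3 were marked on 0 of 32 spots each, the next, with a median signal of 47.2, on 26, and the other 6 on all 32. Of 153 negative control spots, 4 (2.61%) carried the mark. A gene without the mark was not detectable at this depth and may still be transcribed.

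The genes altered in these cells were read first. The Rb1 probe, printed 10 times, had a signal of 541 intensity units. Of the 2 Atm probes 1 was detected, at 430, and the other gave 8.44. The position of these probes relative to the deleted parts of the genes was not known, so they check nothing about the knockouts. Dnmt1 was detected at 4908, at the 81.4th percentile of probes.

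The classes differed in the sequence of their promoters. RefSeq promoters (assembly GRCm38.p6, from 250 bases before to 50 after the start) were available for 13231 of the genes through a single entry. The ratio of observed to expected CpG, which is low where methylation has eroded CpG over evolution, had a median of 0.82 (quartiles 0.67 and 0.95) in 1242 high genes and 0.75 (0.54 and 0.90) in 6873 moderate genes. In 5116 undetected genes it was 0.24 (0.11 and 0.49), and 0.30 after chemoreceptor genes were left out. A ratio of at least 0.6 was found in 82.5% of high, 69.7% of moderate and 19.2% of undetected genes. The word TATAAA on the sense strand stood in 6.76%, 5.02% and 15.2% of them, respectively. High and moderate genes mostly had CpG-rich promoters, and undetected genes mostly had few CpG. Where shares of motifs are given below for all promoters, these are the promoters of 22862 RefSeq genes with a single entry, on the array or not.

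**Figure D2:**
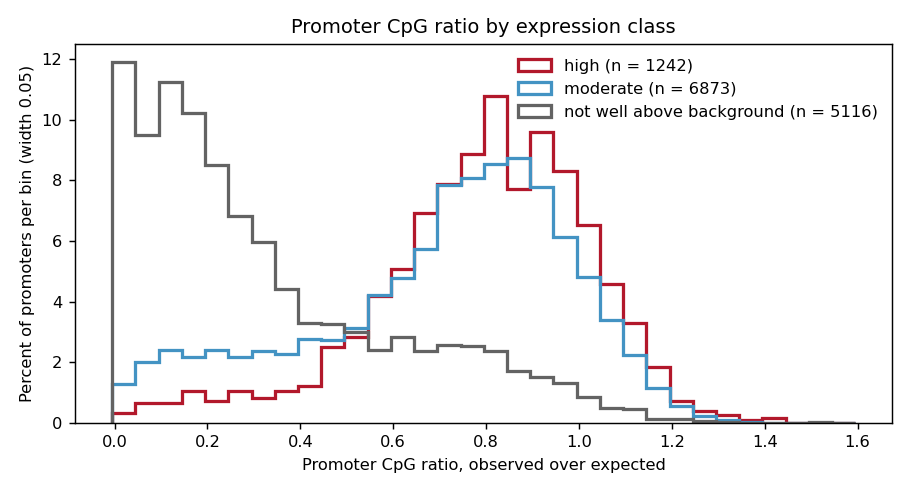
Percent of promoters (vertical axis) per bin of the observed over expected CpG ratio (horizontal axis) for high, moderate and undetected genes with a single promoter entry. The curves of the 1242 high and 6873 moderate genes peak at similar ratios, with medians of 0.82 and 0.75, and that of the 5116 undetected genes lies to the left with a median of 0.24.

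Promoters of 4 genes show the range, each given as the 250 bases before the start on the gene's strand, with every CpG in capitals. Pcna (chr2:132253181-132253430, minus strand), the sliding clamp of DNA polymerase, was high at 108064 intensity units and held 22 CpG. Col1a2 (chr6:4505368-4505617, plus strand), a chain of type I collagen, was high at 308668 with 11. Ddx4 (chr13:112652311-112652560, minus strand), a germ-cell RNA helicase, was not detected at 8.62 with 31, and Alb (chr5:90460620-90460869, plus strand), the serum albumin gene of liver, was not detected with 2.
Pcna: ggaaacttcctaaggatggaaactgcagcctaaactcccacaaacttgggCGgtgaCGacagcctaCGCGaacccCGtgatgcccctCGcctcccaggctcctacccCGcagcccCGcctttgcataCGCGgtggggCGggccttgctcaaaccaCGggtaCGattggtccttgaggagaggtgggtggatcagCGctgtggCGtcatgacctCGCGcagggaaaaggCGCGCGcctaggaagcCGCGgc
Col1a2: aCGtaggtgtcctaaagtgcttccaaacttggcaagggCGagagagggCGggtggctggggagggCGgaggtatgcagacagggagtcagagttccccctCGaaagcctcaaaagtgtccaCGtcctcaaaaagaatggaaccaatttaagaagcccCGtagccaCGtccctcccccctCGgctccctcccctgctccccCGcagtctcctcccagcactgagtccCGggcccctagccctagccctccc
Ddx4: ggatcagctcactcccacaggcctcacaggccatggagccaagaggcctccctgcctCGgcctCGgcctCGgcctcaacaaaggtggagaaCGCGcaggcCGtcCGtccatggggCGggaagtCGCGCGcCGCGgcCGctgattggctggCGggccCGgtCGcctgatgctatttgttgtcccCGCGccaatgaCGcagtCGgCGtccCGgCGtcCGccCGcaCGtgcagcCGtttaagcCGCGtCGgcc
Alb: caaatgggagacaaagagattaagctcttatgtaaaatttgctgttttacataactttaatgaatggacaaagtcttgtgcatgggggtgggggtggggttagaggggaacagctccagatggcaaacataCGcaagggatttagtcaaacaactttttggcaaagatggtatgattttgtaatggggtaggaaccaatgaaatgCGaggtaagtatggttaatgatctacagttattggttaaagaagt

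Undetected genes with many CpG were unevenly spread over the families. Among germ-cell markers 12 of 19 undetected genes with a promoter had a ratio of at least 0.6, among Wnt ligands 7 of 8, among receptor tyrosine kinases 7 of 12 and among Hox genes 8 of 14. Among olfactory receptors it was 3 of 851, and among liver and gut markers 2 of 10. Over all undetected genes it was 980 of 5116.

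The labelled cell type was checked against fibroblast markers, of which 19 of 20 were detected (63.7% of all genes were) and 10 were high (9.37% of all genes were), with a median percentile of 91.1 beside 59.7 for all genes. The matrix genes Fn1, Dcn and Lum had signals of 212491, 118012 and 27744 intensity units, and the intermediate filament Vim had 178239. Pdgfrb, a growth factor receptor of mesenchymal cells, was high at 22673, whereas its partner Pdgfra was moderate at 131. Thy1, a surface protein of many fibroblasts, was the undetected member at 31.8.

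Markers of other cell types were detected in part. Blood and macrophage markers were detected in 6 of 16 cases (37.5%, beside 63.7% of all genes). They ran from 40.6 to 1183 intensity units, with Cd14, a receptor for bacterial lipid, at 1183. Fcer1g of this list was also detected, in the moderate class, whereas Spi1, Tyrobp and Lyz2 were not detected. Of 14 endothelial markers 6 (42.9%) were detected, from 57.8 to 4542, the upper end being Kdr by 1 of its 2 probes. Eng was also detected, in the moderate class, and Pecam1 had a signal of 57.8. Cdh5, Tie1, Tek and Cldn5, known from endothelium, were not detected. Of 18 epithelial markers 8 (44.4%) were detected, from 66.4 to 8359. Pkp1, a desmosome plaque protein, and Krt19, a keratin, had signals of 8359 and 5351, and Epcam, Krt8, Krt18, Dsp and Ocln were not detected. The part of such cells in any result was not tested. In bulk RNA, fewer cells of a type and less RNA per cell cannot be told apart.

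Other lineages gave a mixed picture. Of 18 neural and glial markers 9 (50%, beside 63.7% of all genes) were detected. The synaptic protein Snap25 had 6482 and the neuronal tubulin Tubb3 4210, while Sox2, Pax6, Dcx, Gfap and Olig2 were not detected. Of 20 skeletal and cardiac muscle markers 7 (35%) were detected, among them Acta1 at 3937 and the troponin Tnnt2 at 2206. The myogenic regulators Myod1 and Myog were not detected. Among 17 fat, cartilage and bone markers 8 (47.1%) were detected. Col2a1, the collagen of cartilage, was high at 65451, and Sox9, the regulator of cartilage formation, was moderate at 5284, whereas the cartilage proteoglycan Acan and the bone regulator Sp7 were not detected. The part of such lineages in these values was not tested.

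Genes of early and germ-line cells were mostly undetected. Of 16 pluripotency markers 5 (31.2%, beside 63.7% of all genes) were detected. Klf4, which connective tissue also expresses, was high at 16052, Lin28a stood at 546 and Nanog at 320, and Pou5f1 and Sox2 were not detected. Of 30 germ-cell markers 6 (20%) were detected and 0 were high. Taf7l, a testis form of a general transcription factor, had a signal of 1955 and Prm1, a sperm protamine, 833, both from a single probe. The others were Tuba3b at 91.4, Dmc1 at 83.7 by 1 of its 3 probes, Gtsf1 at 42.1 and Tnp1 at 41.6, close to the lowest detected level. The meiotic genes Sycp1, Sycp2 and Sycp3, the piRNA pathway genes Mael, Piwil1, Piwil2 and Tdrd1, and Dazl and Ddx4 were not detected. Liver and gut markers were detected in 3 of 18 cases (16.7%), Foxa2 at 2801, Apoa2 at 666 and Lgals4 at 206.

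**Figure D3:**
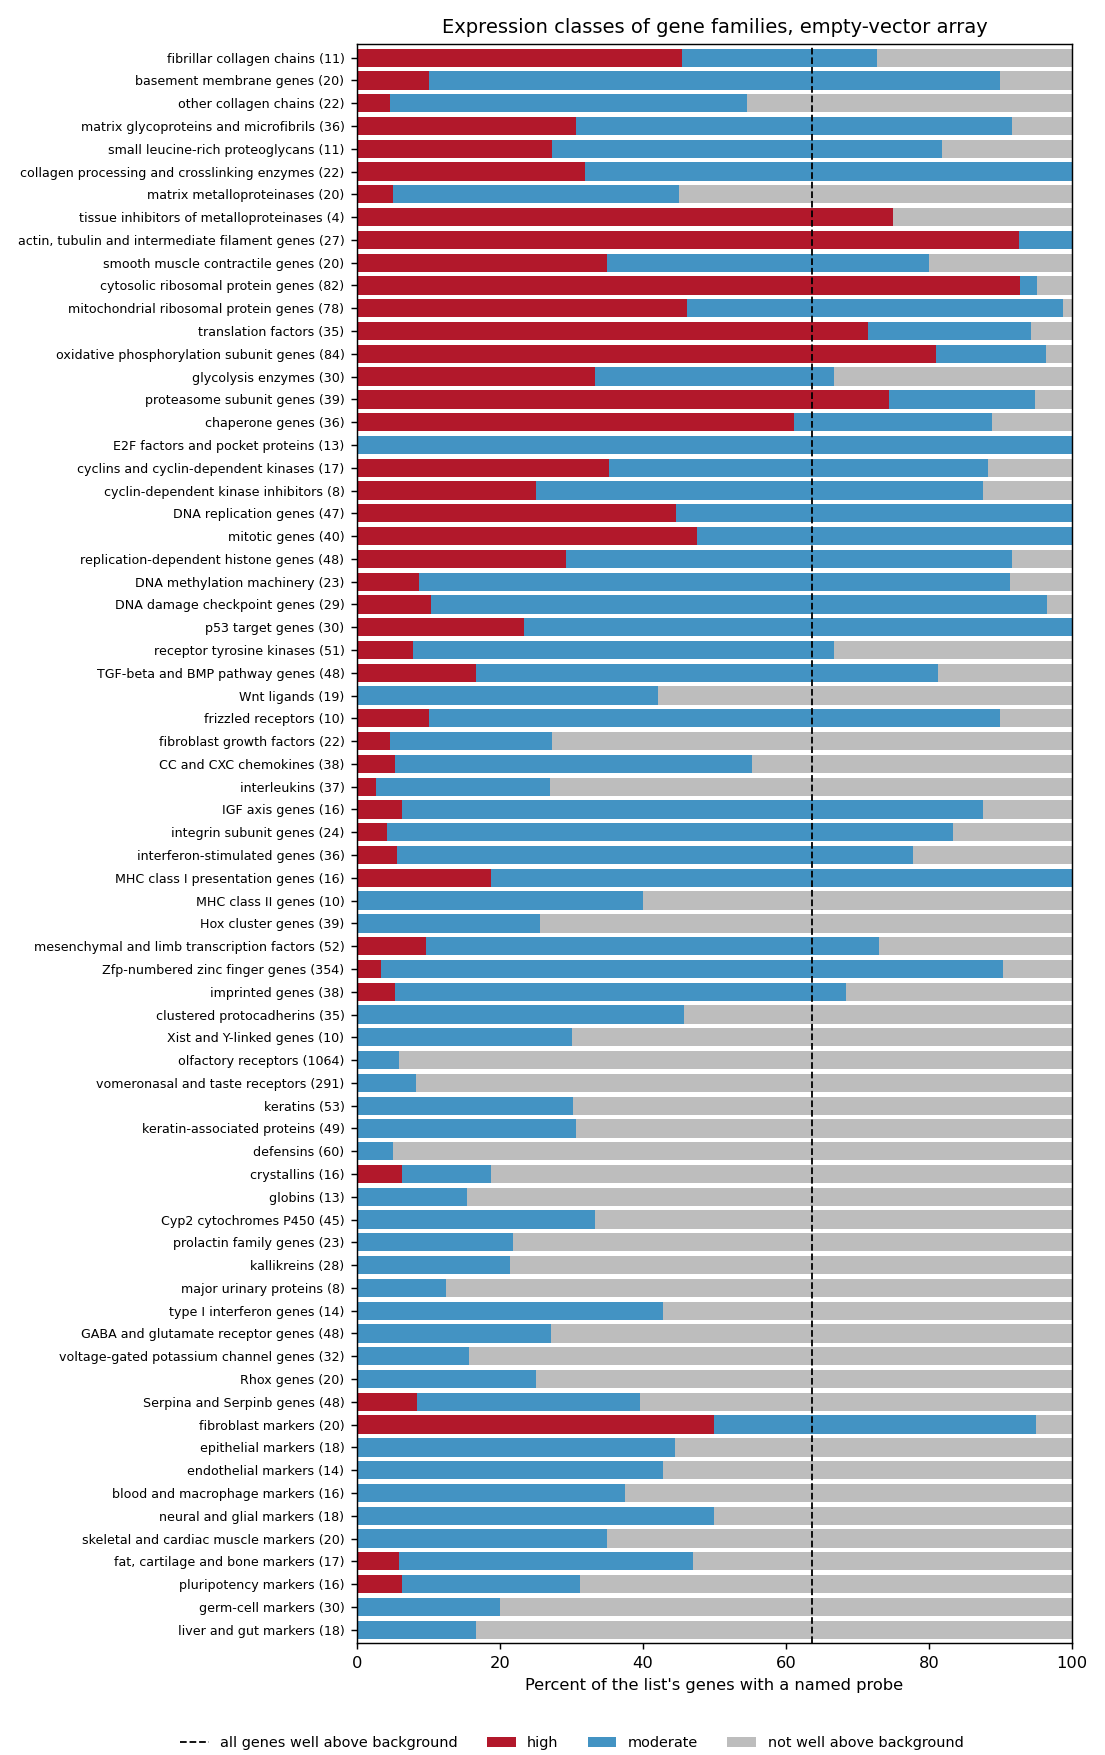
Percent of each family's genes with a named probe (horizontal axis) that were high, moderate or not well above background, for 70 gene lists (vertical axis, number of genes in brackets), with a dashed line at the 63.7% of all genes detected. The lists of cytosolic ribosomal proteins, translation factors, actin and tubulin genes, oxidative phosphorylation and proteasome subunits are mostly high, DNA replication and mitotic genes are all detected, and receptor and secreted families of other tissues are mostly grey.

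The highest signals came from translation and the cytoskeleton. Genes with provisional symbols (such as Gm, LOC or Rik) were left out of the ranking. Among the 30 genes that then ranked highest, 18 encode cytosolic ribosomal proteins, 3 are actin or tubulin genes and 3 are histone genes. A further 1 is a fibrillar collagen and 1 a chaperone. Actb, cytoplasmic actin, had 458519 intensity units and the ribosomal protein genes Rpl41, Rpl37a and Rplp2 had 392445, 373087 and 369139. Also among the 30 were the growth-related protein gene Tpt1 at 319334, the galectin Lgals1 at 288828, the calcium-binding protein gene S100a6 at 275300.1 and Exosc2, a subunit of the RNA exosome, at 316574 by a single probe. At or above the 99th percentile stood 83 genes, of which 37 were ribosomal protein genes.

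Ribosomal protein genes were nearly all high. Of 82 members 78 were detected and 76 were high, with a median percentile of 98.8. The undetected members were Rpl3l, Rpl10l, Rpl39l and Rps4l, relatives of the standard subunits, of which Rpl3l is known from striated muscle and Rpl10l and Rpl39l from testis. Rps25 and Rpl21 were the detected members below the high limit. The 2 probes of Rps25 gave 354 and 185379, so that its mean of 8107 hides a difference between probes, while those of Rpl21 gave 692 and 1222. A pyrimidine tract, searched as CTTTTC or CTTTCC on the sense strand within 20 bases of the start, stood in 13 of 50 ribosomal protein promoters (26%) and in 3.22% of all promoters. Ribosomal protein genes have many near-identical processed pseudogenes, whose transcripts a probe may also bind.

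Other genes of protein synthesis followed. Translation factors were detected in 33 of 35 cases and high in 25. The elongation factors Eef2 and Eef1d had 177898 and 171218 intensity units, and the cap-binding protein gene Eif4e had 3962. Eif5b, an initiation factor gene, and Eef1a2, the elongation factor form of muscle and neurons, were not detected. Mitochondrial ribosomal protein genes were detected in 77 of 78 cases but high in 36, with a median percentile of 89.5. Of 36 chaperone genes 32 were detected and 22 were high. Ppia, a prolyl isomerase, had 310550.4, the cytosolic chaperone Hsp90ab1 235472 and Hspa5, the chaperone of the endoplasmic reticulum, 147545. Hspa1a, the heat-inducible Hsp70, was moderate at 153. Cct6b and Hspa1l, chaperone forms of testis, were not detected.

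Proteasome subunit genes were high in 29 of 39 cases and detected in 37. The core subunit genes Psma2 and Psmb3 had 128694 and 105508 intensity units. Of the inducible subunits of the immunoproteasome, Psmb8 and Psmb9 were moderate at 751 and 999, and Psmb10 was high at 22967. Psmb11, the subunit of the thymus, and Psma8, that of testis, were not detected.

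Respiration genes were mostly high and glycolysis genes were of all classes. Oxidative phosphorylation subunit genes were detected in 81 of 84 cases and high in 68, with a median percentile of 95.4. The cytochrome oxidase gene Cox6a1 had 255944 intensity units and the ATP synthase gene Atp5b 219161, whereas Cox6a2, the form of heart and skeletal muscle, was at 41.0. Cox7b2, Cox8b and Cox8c were not detected. Of 30 glycolysis genes 20 (66.7%) were detected, near the share of all genes, and 10 were high. Eno1, Gapdh, Aldoa and Pgam1, the forms found in most tissues, had 136211, 134784, 130872 and 124048. The undetected members included the sperm forms Pgk2, Ldhc and Gapdhs, the liver and red cell form Pklr, and the glucose transporters Slc2a2, Slc2a3 and Slc2a4.

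**Figure D4:**
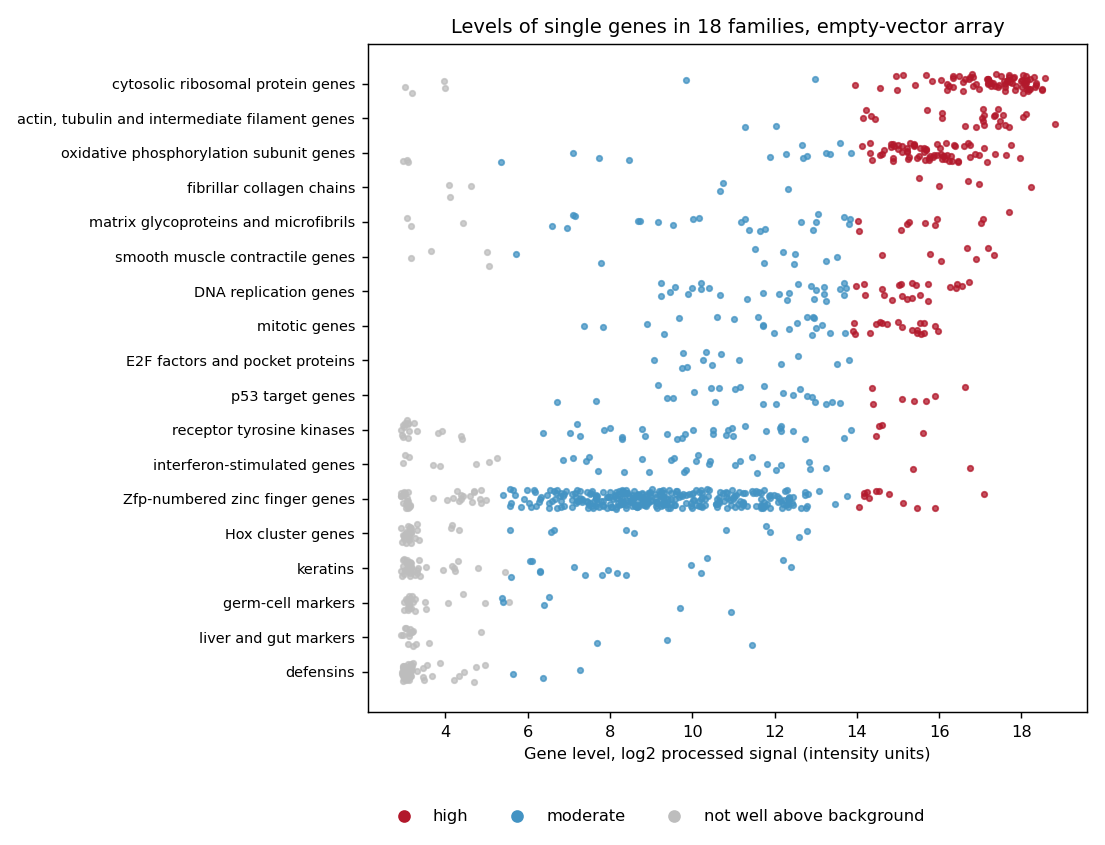
Gene level in log2 intensity units (horizontal axis) of each gene with a named probe in 18 families (vertical axis), coloured by class; points are spread vertically only to separate them. Ribosomal protein and cytoskeleton genes cluster at the right, the 354 zinc finger genes fill the moderate range, and Hox genes, keratins, germ-cell markers and defensins pile up at the left.

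Genes of interstitial collagen were of all classes, and the chains of types I and III were high. Of 11 fibrillar collagen genes 8 (72.7%) were detected, near the 63.7% of all genes, and 5 (45.5%, beside 9.37%) were high. The high ones were Col1a2, Col3a1, Col1a1, Col2a1 and Col5a1, at 308668, 128426, 106158, 65451 and 46626 intensity units. Col11a1, Col5a3 and Col5a2 were moderate, from 1636 to 5108, and Col11a2, Col24a1 and Col27a1 were not detected. Of 22 genes that process or crosslink collagen, all were detected and 7 were high. Pcolce, which speeds the trimming of procollagen, had 215280.2, the prolyl isomerase Fkbp10 106203, the collagen chaperone Serpinh1 74955 and the crosslinking enzyme Lox 28146. P3h2, a prolyl hydroxylase known for basement membrane collagen, was at 117.

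Other matrix families held more moderate than high genes, as did all genes. Of 20 basement membrane genes 18 (90%, beside 63.7% of all genes) were detected. High members numbered 2 (10%), near the 9.37% of all genes: the laminin chains Lamb1 at 40573 and Lamc1 at 17308. The epithelial laminin chain Lamb3 was at 72.2, and Lamc3 and the kidney collagen chain Col4a3 were not detected. Of 22 other collagen genes 12 (54.5%) were detected, with Col6a1, a chain of microfibrillar collagen, high at 61974. Glycoprotein and microfibril genes were detected in 33 of 36 cases (91.7%) and high in 11 (30.6%). Fn1 had 212491, the fibulin Fbln2 137057 and Ccn2, a matricellular protein induced by tension and TGF-beta, 132616. Tnc, the tenascin of remodelling tissue, was at 96.8, and Thbs4, Vtn and Sparcl1 were not detected. Of 11 small leucine-rich proteoglycans, which bind collagen fibrils, 9 were detected and 3 were high: Dcn at 118012, Lum at 27744 and Epyc, known from cartilage, at 26099.8.

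Inhibitors and proteases of the matrix fell into different classes. Of 4 inhibitors of metalloproteinases Timp1, Timp3 and Timp2 were high, at 96927, 75693 and 70165 intensity units, and Timp4 was not detected. Of 20 metalloproteinase genes 9 were detected and 1 was high, the gelatinase Mmp2 at 25352. Mmp14, the membrane protease that activates it, was moderate at 2224, Mmp3 stood at 45.3, and the neutrophil and macrophage enzymes Mmp8, Mmp9 and Mmp12 were not detected.

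The list of actin, tubulin and intermediate filament genes had, after the ribosomal protein genes, the largest share of high genes among the 70 lists. This list also holds actin-binding genes such as Tmsb4x and Capzb, and it leaves out some tubulins, among them Tuba3a and Tuba3b. All 27 of its genes were detected and 25 were high, with a median percentile of 98.4. The exceptions were Tubb3 at 4210 and the actin-capping gene Capzb at 2500, the latter with probes at 430 and 14529. Of 20 smooth muscle contractile genes 16 were detected and 7 were high. Csrp1, Acta2, Tagln and Myl9 had 165946, 149827, 122348 and 104849, which are the genes that mark contractile fibroblasts as well as smooth muscle. Actg2, the enteric actin, was moderate at 2935, Myocd, the coactivator that drives the smooth muscle programme, stood at 52.5, and Myh11, Des, Mylk and Lmod1, genes of differentiated smooth muscle, were not detected.

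Genes of proliferation were detected nearly throughout. All 47 DNA replication genes and all 40 mitotic genes were detected, of which 21 and 19 were high, with median percentiles of 89.0 and 88.3. Pcna had 108064 intensity units and the helicase subunit genes Mcm4, Mcm3 and Mcm6 had 96328, 88401 and 87507. Rrm2, the regulated subunit of ribonucleotide reductase, had 79090.2, and Orc4, a subunit of the origin recognition complex, had 601. Among mitotic genes the contractile ring scaffold Anln had 64731, the anaphase activator Cdc20 61579.9 and the condensin subunit Ncapd2 51211. Cenpf, a kinetochore protein, was at 165.

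Promoters of both families were searched for known cell cycle words. E2F words were searched on either strand. The first was TTCCCGC, the next was TTCGCGC, the third was TTGCCGC and the last was TTGGCGC, and a promoter can hold several. At least 1 of them stood in 19 of 31 replication promoters (61.3%) and in 9.55% of all promoters. They also stood in 47.4% of 19 DNA damage promoters and in 44% of 25 promoters of germ-cell markers, most of which were not detected. The cell cycle homology region word TTTGAA, on either strand, stood in 21 of 31 mitotic promoters (67.7%), in 18.5% of all promoters and in 37.7% of 903 olfactory receptor promoters. A CCAAT box on either strand stood in 61.3% and 71% of them, and in 38.2% of all. The motif is shown in capitals for Mcm6, in which it lies 40 to 46 bases before the start (chr1:128359719-128359778, minus strand), and for Cdc20, in which it lies 13 to 18 bases before it (chr4:118437344-118437403, minus strand).
Mcm6: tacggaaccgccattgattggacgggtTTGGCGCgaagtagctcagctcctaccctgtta
Cdc20: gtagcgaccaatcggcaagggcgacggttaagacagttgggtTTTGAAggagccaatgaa

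The regulators of these genes sat lower. All 13 E2F factors, partners and pocket proteins were detected and 0 were high, with a median percentile of 71. This count includes Rb1, the lowest of them at 541, whose probe checks nothing about the knockout. E2f6, a repressor that acts without pocket proteins, had 14346 intensity units and the dimer partner Tfdp1 11719.9. The activator E2f1 had 6098 and the late-acting repressor E2f8 had 4589.8. The remaining pocket proteins Rbl1 and Rbl2, the relatives of Rb1, stood at 1651 and 873. Of 17 cyclins and cyclin-dependent kinases 15 were detected and 6 were high. Ccnd1 and Ccnd2, the D-type cyclins, had 86328 and 40787, their kinase Cdk4 56994 and the mitotic cyclin Ccnb2 41991. Ccne2 was at 90.2, and Ccna1 and Ccnb3, cyclins of germ cells, were not detected.

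Of 8 inhibitors of these kinases 7 were detected and 2 were high. Cdkn2d had 26599 and Cdkn1b 21791. Cdkn2a, which encodes p16 and p19ARF, was moderate at 5262, with its 2 probes at 1612 and 17173. Cdkn1a, the p53-induced inhibitor p21, was moderate at 1599 with probes at 282 and 9074. Cdkn1c was not detected.

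Replication-dependent histone genes were detected in 44 of 48 cases and high in 14. The H2A genes H2ac12, H2ac10 and H2ac20 had 287400.3, 281517 and 270111.5 intensity units, but these genes are near-identical and a probe can take up the RNA of several. The H3 gene H3c4 had 89233, and the testis linker histone H1f6 stood at 47.8. The word TATAAA stood in 22 of 42 histone promoters (52.4%) and in 9.49% of all promoters, and a CCAAT box in 35 of them (83.3%). In H2ac20 the word, in capitals, lies 37 to 42 bases before the start (chr3:96220890-96220949, minus strand).
H2ac20: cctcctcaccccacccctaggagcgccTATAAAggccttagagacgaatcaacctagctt

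DNA damage and p53 genes were detected almost without exception. Of 29 checkpoint and repair genes 28 (96.6%, beside 63.7% of all genes) were detected. High members numbered 3 (10.3%), near the 9.37% of all genes. They were the histone variant H2ax at 88641, the mismatch repair gene Msh6 at 25777 and the end-joining gene Xrcc6 at 25492. Brca1, a gene of recombination repair, was at 249. Chek1, the checkpoint kinase downstream of ATR, was not detected by its probe, at 40.4. Trp53 itself was moderate at 2268. All 30 p53 target genes were detected and 7 were high, among them Phlda3 at 102176, the nuclease Aen at 61018, Mdm2, which degrades p53, at 52165, and Ccng1 at 42695. The death gene Bax had 35092, and the receptor Eda2r was at 104.

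Of 23 genes of the DNA methylation machinery 21 (91.3%, beside 63.7% of all genes) were detected. High members numbered 2 (8.7%), near the 9.37% of all genes. The high members were Gadd45g, a stress-induced gene, at 18364 and Mbd3, a subunit of the NuRD complex, at 17960.5, whose probes gave 4793 and 67302. Mbd2, a reader of methylated CpG, had 14203. Uhrf1, which brings DNMT1 to replicating DNA, was at 2592 with probes at 212 and 31743. The de novo enzymes Dnmt3a and Dnmt3b stood at 1741 and 263, and the dioxygenase genes Tet2 and Tet3 at 301 and 132. Dnmt3l, their germ-line cofactor, was not detected.

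Receptor tyrosine kinases were detected and high in shares near those of all genes (63.7% and 9.37%): 34 of 51 (66.7%) were detected and 4 (7.84%) were high. The high members were Ephb3 at 49806.5, Axl at 24807, Epha5 at 23696 by 1 of its 2 probes, and Pdgfrb at 22673. Igf1r, the IGF receptor, stood just below the limit at 15002. The 17 undetected members included the kinases of blood cells Kit and Flt3, of endothelium Tie1, Tek and Flt4, and of neurons Ret and Alk, as well as Erbb3 and Erbb4. Of 24 integrin genes 20 (83.3%) were detected, and Itgb5, a partner in vitronectin receptors, was the 1 high member (4.17%), at 29630.5. The common beta chain Itgb1 was at 5033 and Itga11, a collagen receptor of fibroblasts, at 3034. Frizzled receptors were detected in 9 of 10 cases, with Fzd1 high at 16663 and Fzd10 not detected.

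Ligands and their partners were detected as follows. Of 19 Wnt ligands 8 were detected and 0 were high, with Wnt5a, a mesenchymal ligand, at 6547 and Wnt9a at 1162. Of 22 fibroblast growth factors 6 were detected. Fgf7, the mesenchymal factor that acts on epithelium, was high at 18433, Fgf23 stood at 7622 by 1 of its 2 probes, and Fgf2 and Fgf10 were not detected. In the TGF-beta and BMP pathway 39 of 48 genes (81.2%, beside 63.7% of all genes) were detected. High members numbered 8 (16.7%, beside 9.37%). Among them were Fstl1 at 190854, the ligand Bmp4 at 67823 by 1 of its 2 probes, and the BMP targets Id3 and Id1 at 51578.5 and 42080.2. Tgfb3 was high at 30547.5, while Bmp2, Bmp5, Bmp7 and the antagonist Nog were not detected. In the IGF axis 14 of 16 genes were detected, with the binding protein Igfbp2 high at 17510.2 and the receptors Igf1r and Igf2r at 15002 and 14931. The fetal growth factor Igf2 was not detected, at 8.59, nor was Igfbp1.

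Among secreted immune factors few were high. Of 38 chemokine genes 21 (55.3%, beside 63.7% of all genes) were detected and 2 were high: Cxcl12, the stromal chemokine that retains blood stem cells, at 164181 (probes at 117709 and 228999) and Cxcl1, which attracts neutrophils, at 17696. Ccl21b stood at 12982 and Ccl2, which attracts monocytes, at 7057. Of 37 interleukin genes 10 were detected. Il33, an alarmin of stromal cells, was high at 31315, Il6 was moderate at 3484, and Il1a and Il1b were not detected.

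Interferon-stimulated genes were detected in 28 of 36 cases (77.8%, beside 63.7% of all genes) but high in 2 (5.56%, beside 9.37%). Both were membrane proteins that block virus entry, Ifitm3 at 110923 and Ifitm2 at 42143. Ifi27 was at 9763 and the nucleotide hydrolase Samhd1 at 7496. Among the factors that carry the interferon signal, Stat2 and Irf9 were detected at 2786 and 3061, whereas Irf7 was not. Rsad2, Oas2, Oas3, Oas1g, Oasl1 and Ifi44 were not detected either. Of 14 type I interferon genes, which are much alike in sequence, 6 were detected and 0 high, with Ifna11 at 373. The interferon response word, TTTC and again TTTC with any 2 bases between, on either strand, stood in 16 of 25 promoters of the stimulated genes (64%), in 8 of 13 promoters of type I interferon genes (61.5%) and in 3.58% of all promoters. In Ifitm2 its match on the other strand, in capitals, lies 37 to 46 bases before the start (chr7:140955973-140956032, minus strand).
Ifitm2: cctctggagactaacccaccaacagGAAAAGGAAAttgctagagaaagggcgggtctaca

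Antigen presentation differed by class. All 16 genes of MHC class I presentation were detected and 3 were high: the light chain B2m at 55833, H2-Q4 at 35184 and the inducible proteasome subunit Psmb10 at 22967. H2-D1 was at 4625, and Nlrc5, the class I transactivator, stood at 53.6. Of 10 MHC class II genes 4 were detected, from 39.1 to 149, and 0 were high. Cd74, the invariant chain, was at 107.5, and Ciita, the class II transactivator, was not detected.

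The Hox genes, which record position along the body axis, were detected in a compact part of their clusters. Of 39 genes 10 were detected and 0 were high. In cluster A 7 of 11 were detected, in cluster B 3 of 10, and in clusters C and D 0 of 9 each. In cluster B these were the neighbours Hoxb2, Hoxb3 and Hoxb4, at 6185, 334 and 7089.6 intensity units. In cluster A the detected genes included Hoxa2, Hoxa3, Hoxa4 and Hoxa5 at 1816, 3569.8, 99.9 and 386, and Hoxa7 and Hoxa9 at 94.9 and 47.8. Hoxa9 rests on 1 of its 2 probes. The posterior genes with paralogue numbers 10 to 13 were not detected in any cluster.

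Other transcription factors were mostly moderate. Of 52 mesenchymal and limb factors 38 (73.1%, beside 63.7% of all genes) were detected. High members numbered 5 (9.62%), near the 9.37% of all genes. They were Prrx2 at 79459.8, Snai2 at 21807, Foxc1 at 20275, Nr2f1 at 17626 and Snai1 at 17073. Prrx1, the limb mesenchyme factor, was at 10459.8 and Twist1 at 5291. The factors Tbx4 and Pitx1 of the hindlimb, Tbx5 of the forelimb and heart, Shox2, En1, Wt1, Foxf1 and Foxf2 were among the 14 that were not detected. The Zfp-numbered zinc finger genes were nearly all detected and rarely high. Of 354 members 320 (90.4%) were detected, yet 12 (3.39%) were high and the median percentile of 62.9 was close to the 59.7 of all genes. Zfp408 was at 139390.2, Zfp622 at 61498 and Zfp697 at 42.2.

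Imprinted genes, expressed from the copy of a single parent, were detected in 26 of 38 cases (68.4%), near the 63.7% of all genes, and 2 (5.26%) were high, Cd81 at 112591 and Sgce at 21550.1. Igf2r was at 14931. Besides Igf2 and Cdkn1c, the undetected members included Phlda2, Nnat, Ddc and Dio3. Clustered protocadherins, surface proteins known from neurons, were detected in 16 of 35 cases, with Pcdhga9 at 10292 (probes at 1168 and 90733) and Pcdhb21 at 5823. The Y-linked genes Eif2s3y, Ddx3y and Uty were detected at 9411, 4158 and 109, whereas Kdm5d, Usp9y, Zfy1, Zfy2 and the testis factor Sry were not. Xist, the RNA of the inactive X chromosome, was not detected by either probe. By chromosome, the share of detected genes on the autosomes ran from 55.3% (chromosome 7) to 70.9% (chromosome 8). It was 51.1% on the X and 15.8% on the Y, where 3 of 19 genes were detected. With chemoreceptor genes left out the autosomes ran from 64.3% (chromosome 6) to 73% (chromosome 19) and the X stood at 51.5%.

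Families of specialised tissues were mostly undetected. Of 1064 olfactory receptors 63 were detected (5.92%), and of 291 vomeronasal and taste receptors 24 (8.25%), with 0 high in either. Olfr544 reached 4139.7 intensity units, Olfr1229 2527 and the bitter taste receptor gene Tas2r109 1085. Of 60 defensin genes Defb39, Defb47 and Defb11 were detected, at 154, 83.1 and 50.4. Hemoglobin was represented among 13 globins by Hba-a2 at 133, the other detected globin being Cygb, the cytoglobin of fibroblasts, at 411. Of 8 major urinary protein genes Mup2 was detected at 43.9, and of 28 kallikreins 6 were detected, up to 90.6 for Klk1b21. The shares of the last families lie above the 2.61% of negative control spots with the mark, but many of these signals lie near the lowest detected level.

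Keratin genes were detected in 16 of 53 cases and keratin-associated protein genes, which build hair, in 15 of 49, with 0 high in both. Krt19 was at 5351, Krt222 at 4738 by 1 of its 2 probes and Krt73 at 1319. Krtap19-4 was at 3286 and Krtap1-4 at 38.2, close to the limit of detection. TATAAA stood in 36 of 44 promoters of keratin-associated protein genes (81.8%). Of 20 Rhox genes, X-linked homeobox genes of the reproductive tract, 5 were detected: Rhox8 at 1934, Rhox5 at 415, and Rhox3f, Rhox2h and Rhox4e from 45.4 to 55.3.

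In several such families single members stood far apart from the rest. Of 16 crystallins 3 were detected, and Cryab, a small heat shock protein as well as a lens protein, was high at 16929.9, while Crygs and Cryba4 were at 293 and 75.5. Of 23 prolactin family genes 5 were detected, with Prl2c1, a member of the proliferin group, at 12556 and the others up to 202 for Prl3b1. Of 32 voltage-gated potassium channel genes 5 were detected, with Kcna4 at 9651 and Kcnd1 at 1146. Of 48 genes matched by GABA and glutamate receptor symbols 13 were detected, among them Gabrr2 at 3548. The match also takes in Grina, at 3178, which is not a receptor subunit. Of 48 Serpina and Serpinb genes 19 were detected and 4 were high: Serpinb6a, Serpinb6c, Serpinb1a and Serpinb8, at 104338, 57027, 39831 and 17391. Of 45 Cyp2 cytochromes, drug-metabolising enzymes of liver, 15 were detected, with Cyp2j8 at 1636 by 1 of its 2 probes.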

How the data were processed

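Total RNA (200 ng) was labelled with Cy3 and hybridised to a 1-colour Agilent array, per the labels' protocols. Per the submitters' processing notes, the scanner output that the authors deposited was made with Agilent Feature Extraction 10.7.3.1. It gives a processed signal that is an intensity on a linear scale after background subtraction, with substitute values near background, per the file headers. The deposited marks for controls, outliers, saturation and signals above background are per-spot values of 0 or 1, per the file headers. The deposited value table repeats this intensity, linear and uncentred (median 75.2, at most 0.493% from the scanner file over 44397 spots). No scaling between arrays was used.

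Of 43020 non-control spots 228 outliers were left out and 0 were saturated. The log2 processed signal was computed from the deposited intensity and averaged per probe, leaving 39416 probes. Probes were named through the file's accession, without version, and RefSeq genes of GRCm38.p6: 26404 matched 1 symbol, 0 several and 13012 none. The array was designed on another build, so no array coordinates are given. Detection, levels and classes are defined in the report, and a percentile is the share of probes with a lower signal. Levels below detection have no order. The software gave a median error of 10% for detected probes. Array number limits the precision: there is 1 array, and no test was run.

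Members and the 70 gene lists were chosen with earlier results of these data known. After the files were seen, the histone list was rewritten in current symbols, receptors were taken out of the type I interferon list, and all motifs but TATAAA were chosen. Genes were named by rule: Dnmt1, Rb1 and Atm, the 30 highest levels, and in each list the 4 highest, the lowest detected and the undetected members, all members of lists with few detected, all Hox genes and markers, and the 3 lowest detected genes. Genes with provisional symbols were left out before the 30 highest and the 3 lowest were taken. Rpl3l, Rpl10l, Rpl39l, Rps4l, Rps25, Psmb9, Cox7b2, Cox8b, Cox8c, Col5a1, Col11a1, Col5a3, Actg2, Rrm2, Rbl1, Rbl2, H3c4, Trp53, Bax, Uhrf1, Dnmt3a, Dnmt3b, Tet2, Tgfb3, Ccl2, Stat2, Irf9, Snai1, F10 and Slc10a1 were named after their values were seen. The computing was tested on simulated data and run with Python 3.11.15, numpy 2.4.6 and pandas 2.3.3. The alternatives were 10, among them normexp background correction (offset 50) with limma 3.58.1 in R 4.3.3. Some members of the lists are counted but are not reported here by name.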

Additional observations from a re-analysis of the deposited data

Results flagged for a closer look

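Probes without a gene symbol lie outside the gene families described. Of 13012 such probes 5044 (38.8%) were well above background, beside 55.1% of all probes and 2.61% of negative control spots, and 1210 of them reached the 90th percentile of probes. They are flagged because this signal, above the level of the control spots, enters no family.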

How the results depend on the processing

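With 1 array no replicate could be left out. No paired analysis was possible because a single array is described. Of the 10 alternatives, 9 were planned, and normexp was run on the median signal in place of the mean signal, which was not used here, a choice made after seeing the data. Lower limits of detection moved the families that are mostly undetected. With the 95th percentile of negative control spots (10.1 intensity units) as the limit, 13 epithelial markers (8 as reported), 12 germ-cell markers (6) and 247 olfactory receptors (63) were detected. With the software's positive-and-significant mark these were 13, 13 and 262. The percent of genes that were high was 9.37 and fell to 3.62 with the 95th percentile of probes as the limit. The other main counts stayed within 1.5 times under all 10 alternatives. Over the 70 lists, the number detected moved by over 1.5 times in 21 with the negative control limit, in 22 with the other mark and in 5 with every probe required. The number high moved in 27 with the 95th percentile, in 8 with the brightest probe and in 2 with normexp. Of 1161 gene levels, set relative to the 75th percentile of probes, 623 moved beyond the 2.23 SD between probes with normexp, and at most 19 with any other alternative.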

Other observations

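A few genes known from the liver had very high signals on this array while most markers of liver were not detected. F10, coagulation factor X, had 266771 intensity units by 1 of its 2 probes, the other giving 9.37, and Slc10a1, the bile acid transporter of hepatocytes, had 251703, also by 1 of 2 probes. Of the 18 liver and gut markers 3 were detected. Both genes were picked out after their values were seen, and what those probes bind was not tested.

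By RefSeq gene type, 64.3% of 19457 protein-coding genes, 39.7% of 373 long non-coding RNA genes and 46% of 163 transcribed pseudogenes were detected.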
